A study of Oryctolagus cuniculus with 4 samples.

Results

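The genes described here are the WNT ligands of the rabbit bladder together with the proteins that secrete, receive, enhance and block them. All genes were taken whose symbol, in upper or lower case, names a WNT, Frizzled (FZD), SFRP, DKK, WIF1, R-spondin (RSPO), LGR, LRP5 or LRP6, AXIN, TCF7 or TCF7-like, LEF1, ROR1 or ROR2, NOTUM, PORCN or WLS gene. The rule matched 43 of the 18475 genes in the count matrices, of which 9771 carry a symbol. Single cells were sequenced from the bladder mucosa of New Zealand rabbits, in 2 uninjured samples (Normal_1 and Normal_2) and 2 samples taken 10 days after resection of a patch of mucosa (Injury_1 and Injury_2), when new urothelium had just closed over the wound. The study's methods call them biological replicates, but the labels tie no sample to an animal, and p-values measure the spread between these samples only. Each sample was 1 library, no gene was altered and no drug was compared between the groups. A control for the operation alone was not analysed here.

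WNT proteins are secreted, lipid-carrying signals. PORCN attaches the lipid and WLS carries the ligand to the cell surface, where it binds a Frizzled receptor together with LRP6, or with ROR1 or ROR2 in signalling that does not use beta-catenin. R-spondins, through LGR receptors, keep Frizzled proteins on the cell surface, whereas SFRP and WIF1 proteins bind the ligand and DKK1 and DKK2 block LRP6. Inside the cell AXIN proteins hold beta-catenin low, and TCF and LEF proteins take it to its target genes, among them AXIN2 and LEF1 themselves. In the bladder, WNT ligands made by the stroma are known to act on the urothelium as it regrows.

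Of 25659 barcodes, 21945 cells passed the filters on unique molecular identifiers (UMIs, 1 for each captured RNA molecule), genes and mitochondrial share, and the libraries shared between 4 and 12 barcodes per pair. The median kept cell held 4813.5 UMIs in Normal_1, the shallowest sample, and between 6759 and 7186 in the others. Although the samples carry the tissue label urothelium, epithelial-like cells made up 6.98% of all kept cells, fibroblast-like cells 40.9%, endothelial-like cells 24.9% and smooth muscle and pericyte-like cells 10.1%. T cell-like cells made up between 1.81% and 2.32% of the normal samples and 6.13% and 10.5% of the injured ones, and macrophage-like cells 1.97% and 3.06% against 9.6% and 10.6%. UMIs were summed per sample and class, and a level is given as CPM, the UMIs of the gene per 1000000 UMIs of that class in that sample. The libraries were read from transcript ends, so levels are compared between cells and samples and not between genes. In sums over cells of a class, fewer expressing cells and less RNA per cell cannot be told apart.

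The 43 genes comprise 15 WNT ligands, 2 secretion genes (WLS and PORCN), 6 Frizzled receptors, 3 co-receptors (LRP6, ROR1 and ROR2), 5 R-spondin and LGR genes, 7 secreted antagonists (SFRP2, SFRP4, SFRP5, DKK1, DKK2, DKK3 and WIF1) and 5 intracellular genes (AXIN2, TCF7, TCF7L1, TCF7L2 and LEF1). Over all cells, 18 of them had at least 1000 UMIs, led by SFRP2 with 123602, DKK1 with 16342, WLS with 9981 and WNT2 with 8497. Another 10 had under 50 UMIs, which are LGR5, FZD5, RSPO2, WNT7A, WNT8A, WNT3, WNT16, WNT8B, LGR6 and WNT10A, the last with 1. Genes such as WNT4, WNT7B, SFRP1, LRP5, AXIN1 and NOTUM were not analysed here.

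Most of these genes were at their highest in the stroma. Among the 33 genes with at least 50 UMIs, and over the 6 classes with at least 20 cells in every sample, 19 had their highest mean level in fibroblast-like cells, 5 in endothelial-like, 3 in smooth muscle and pericyte-like, 3 in epithelial-like, 2 in T cell-like and 1 in macrophage-like cells. Fibroblast-like cells held 43.46% of all UMIs but 96.65% of those of SFRP2, 94.52% of WNT2, 93.14% of WIF1 and 91.68% of DKK1. The exceptions were just as uneven, with 82.37% of the UMIs of FZD6 in endothelial-like cells and 50.72% of those of TCF7 in T cell-like cells. These shares and the levels by class are descriptions, without a test.

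**Figure D1:**
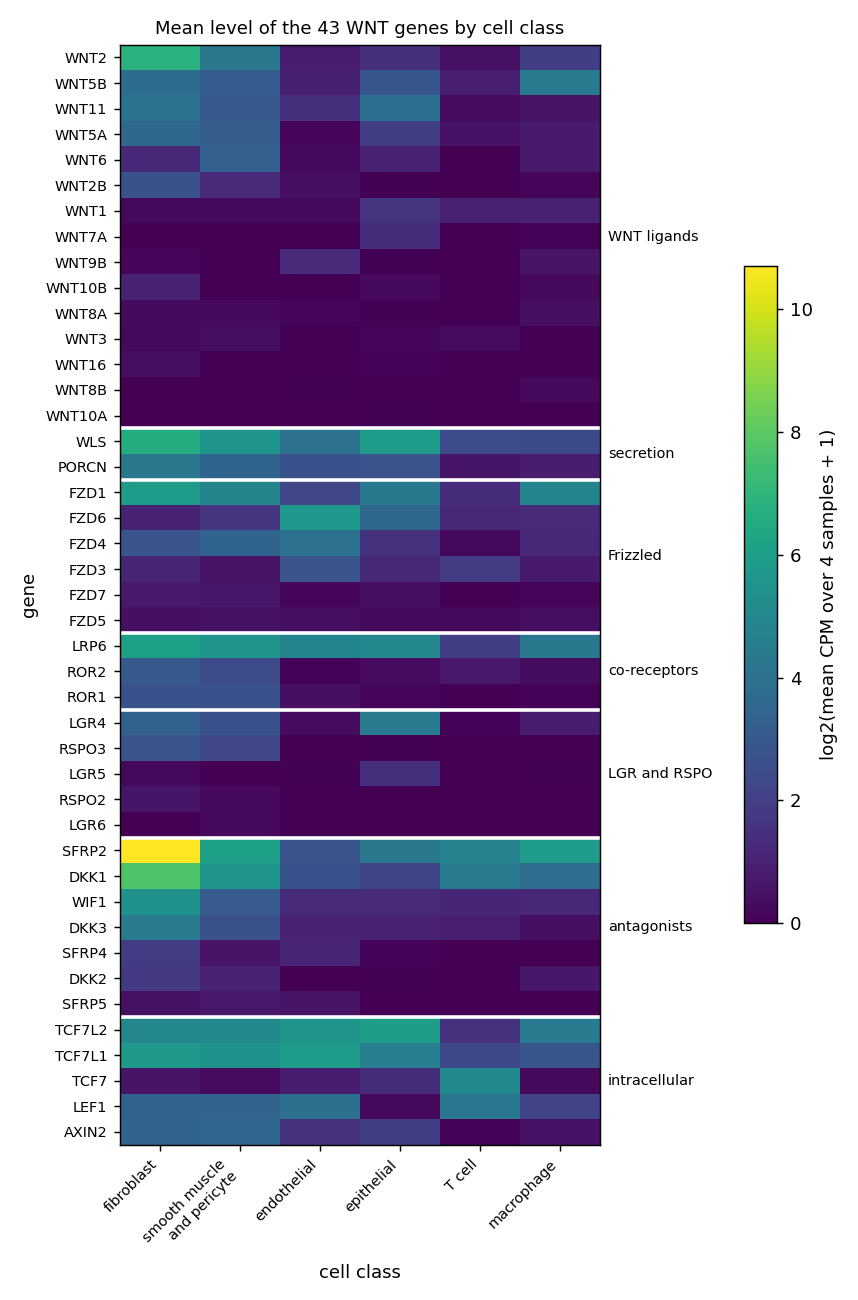
Mean level of the 43 WNT genes (rows, grouped by role) in 6 cell classes (columns), as log2(mean CPM over the 4 samples + 1). SFRP2, with 1659 CPM in fibroblast-like cells, is the brightest entry, FZD6 stands out in endothelial-like cells with 51.4 CPM, and the lower WNT rows are dark in every class.

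Among the ligands, WNT2 was highest in fibroblast-like cells, with 113 ± 68.0 CPM (SD, n = 4), against 18.0 ± 16.3 in smooth muscle and pericyte-like cells, its next highest class. WNT11 had a mean of 15.6 ± 11.7 CPM in fibroblast-like cells and 14.0 ± 16.1 in epithelial-like cells, so that neither class stood above the other beyond the spread between samples. WNT5B, a ligand of beta-catenin-independent signalling, was at 19.8 ± 11.7 CPM in macrophage-like and 12.8 ± 8.58 in fibroblast-like cells, again within the spread. WNT5A was at 10.9 ± 5.97 CPM in fibroblast-like and 7.81 ± 4.16 in smooth muscle and pericyte-like cells. WNT6 differed from these in being higher in smooth muscle and pericyte-like cells, at 8.77 ± 2.33 CPM, than in fibroblast-like cells, at 1.35 ± 0.63. In the neurone-like class, of 116 cells, WNT6 was between 31.3 and 78.9 CPM.

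3 ligands were rare and lay mostly outside the stroma. WNT7A had 94.12% of its 34 UMIs in epithelial-like cells, WNT1 53.52% of its 71, and WNT9B 75.76% of its 66 in endothelial-like cells. WNT2B, at 5.29 ± 0.739 CPM in fibroblast-like cells, was the ligand with the smallest spread between samples relative to its mean among those with over 100 UMIs. The 2 genes of secretion were shared between classes. WLS was at 98.3 ± 53.5 CPM in fibroblast-like, 57.1 ± 15.9 in epithelial-like, 47.1 ± 11.9 in smooth muscle and pericyte-like and 15.2 ± 7.37 in endothelial-like cells, and its order among the first 3 of these is within the spread. PORCN was at 18.7 ± 4.33 CPM in fibroblast-like cells and between 5.40 and 9.85 in the other 3.

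The receptors divided the tissue differently. FZD6 was at 64.3, 28.3, 55.8 and 57.0 CPM in the endothelial-like cells of Normal_1, Normal_2, Injury_1 and Injury_2, the order of samples used throughout, and at 15.2, 7.62, 8.14 and 12.1 CPM in epithelial-like cells. In fibroblast-like cells FZD6 never passed 1.38 CPM. FZD4, a vascular Frizzled, was also highest in endothelial-like cells, at 14.96 ± 4.81 CPM, but by less than the spread over smooth muscle and pericyte-like cells, at 10.1 ± 4.39. FZD1 was at 58.8 ± 29.5 CPM in fibroblast-like and 28.3 ± 13.7 in smooth muscle and pericyte-like cells. LRP6, the co-receptor of the beta-catenin branch, ranged over the 6 classes from 66.1 ± 17.7 CPM in fibroblast-like cells, through 27.3 ± 6.28 in endothelial-like cells, to 2.90 ± 2.44 in T cell-like cells. ROR2, at 6.94 ± 1.03 CPM, and ROR1, at 5.52 ± 2.03 CPM in fibroblast-like cells, were at similar levels in smooth muscle and pericyte-like cells, at 4.37 ± 2.71 and 5.43 ± 2.00.

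LGR4, a receptor for R-spondins, had its highest level among the 6 classes in epithelial-like cells, and the ligand RSPO3 in fibroblast-like cells. LGR4 was at 27.5, 16.9, 20.4 and 17.3 CPM in epithelial-like cells, above each of its values in the other 3 large classes. Fibroblast-like cells held 53.88% of its UMIs and epithelial-like cells 37.18%, and in the small neurone-like class it was between 31.6 and 47.0 CPM in 3 samples, on 3, 5 and 8 UMIs. RSPO3 was at 2.46, 2.49, 9.45 and 9.59 CPM in fibroblast-like cells and had no UMI in endothelial-like cells of any sample. LGR5, known as a stem cell gene of the gut, had 48 UMIs in all, 62.5% of them in epithelial-like cells.

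Of the 7 secreted antagonists, all but SFRP5 had their highest mean level among the 6 classes in fibroblast-like cells. SFRP2 averaged 1659 CPM with an SD of 1350 there, and 66.2 ± 53.4 in smooth muscle and pericyte-like cells. DKK1 was at 147, 213, 310 and 175 CPM in fibroblast-like cells and at 24.7, 26.3, 59.8 and 75.3 in smooth muscle and pericyte-like cells, which did not overlap. The small neurone-like class was as high in DKK1, with 171 to 338 CPM over its samples. WIF1 was at 33.8, 100, 16.6 and 22.9 CPM and DKK3 at 21.8, 33.5, 10.5 and 16.6 CPM in fibroblast-like cells.

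The SFRP2 seen outside fibroblast-like cells can be set beside other fibroblast RNA. In epithelial-like cells, the level of DCN, a matrix gene of fibroblasts, was 0.238%, 1.99%, 1.02% and 1.29% of its fibroblast-like level in the same sample, and that of SFRP2 was 0.361%, 2.36%, 1.05% and 1.05%. In macrophage-like cells the same ratios were 2.00%, 7.26%, 2.58% and 1.91% for DCN and 2.06%, 8.49%, 3.81% and 2.24% for SFRP2. WNT2 was at 1.40%, 1.52%, 1.27% and 1.71% in epithelial-like cells and at 0%, 10.4%, 1.497% and 2.74% in macrophage-like cells. The part of fibroblast RNA in these levels was not tested. By contrast, WNT11 in epithelial-like cells stood at 54.6%, 17.4%, 105% and 249% of its fibroblast-like level, and LGR4 at between 109% and 541%. In smooth muscle and pericyte-like cells DCN was at 3.08%, 16.8%, 6.70% and 11.6% and DKK1 at 16.7%, 12.3%, 19.3% and 43.1%, so DKK1 was below the ratio of DCN in 1 of the 4 samples.

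Of the intracellular genes, TCF7L2 was highest in epithelial-like cells, at 63.1 ± 14.1 CPM, and TCF7L1 in endothelial-like cells, at 57.8 ± 10.8, with fibroblast-like cells within the spread at 52.9 ± 7.10. TCF7, a regulator of T cells, was at 82.0, 23.6, 11.8 and 17.7 CPM in T cell-like cells and below 3.1 CPM in every sample of the 4 large classes. LEF1 was at 17.2 ± 10.4 CPM in T cell-like cells, 14.6 ± 5.09 in endothelial-like, 9.46 ± 2.43 in smooth muscle and pericyte-like and 8.93 ± 3.11 in fibroblast-like cells. AXIN2, which reports beta-catenin activity, was at 10.3 ± 4.75 CPM in smooth muscle and pericyte-like and 9.73 ± 2.14 in fibroblast-like cells, against 2.91 ± 0.889 in epithelial-like and 1.88 ± 0.738 in endothelial-like cells.

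The fibroblast-like cells fell into 5 clusters, and these divided the antagonists and ligands among them. Cluster 3, led by PTPRQ, HHIP, MMP3 and NRG1 and of 1771 cells, had the highest mean level of WIF1, WNT5A, WNT11, LEF1, AXIN2, DKK3 and WLS. Cluster 1, led by LVRN, MFAP5 and PCOLCE2, had the highest level of SFRP2, WNT2, WNT2B and LGR4. Of the other 3 clusters, 5 is led by COCH, TNFAIP6 and CHI3L1, 7 by APOD, INMT and HSD11B1, and 2 by EREG, FAM162B and TCF21.

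WIF1 and SFRP2 were highest in different clusters. WIF1 was at 133, 254, 187 and 169 CPM in cluster 3 and at no more than 1.89 CPM in any sample of cluster 1. SFRP2 was at 1200, 1460, 5839 and 3772 CPM in cluster 1, but at 0, 7.03, 22.6 and 19.9 CPM in cluster 3. Cluster 2 held both, with means of 26.4 CPM for WIF1 and 143 for SFRP2. Both are antagonists that bind the ligand itself. DKK1, which acts on LRP6, was present in all 5 clusters, from a mean of 150 CPM in cluster 1 to 336 in cluster 2, and its samples overlapped between each pair of clusters.

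WNT5A and WNT11 were highest in the same cluster as WIF1. WNT5A was at 19.0, 48.3, 47.3 and 87.8 CPM in cluster 3, and at most at 14.7 CPM in any sample of the other 4 clusters. WNT11 was at 19.6, 73.3, 17.6 and 54.8 CPM there, against means of 4.82 to 10.3 elsewhere. WNT5B, by contrast, had means of 16.3 CPM in cluster 3 and 19.6 in cluster 2, and overlapped. LEF1 and AXIN2, genes that beta-catenin itself can switch on, had means of 28.5 ± 10.0 and 23.6 ± 6.02 CPM in cluster 3 and of 1.08 ± 1.27 and 4.41 ± 2.16 in cluster 1. AXIN2 was higher in cluster 3 than in each other cluster in every sample.

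RSPO3 had the reverse pattern, with no UMI among 12948899 in cluster 3, which allows up to 0.232 CPM, and means of 5.14 to 8.41 CPM in the other 4 clusters. This limit covers counting error only. WNT2B was likewise at 0.342 ± 0.395 CPM in cluster 3 and at 9.49 ± 1.82 in cluster 1. WNT2 was less uneven, from 64.0 ± 33.1 CPM in cluster 3 to 140 ± 89.8 in cluster 1.

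**Figure D2:**
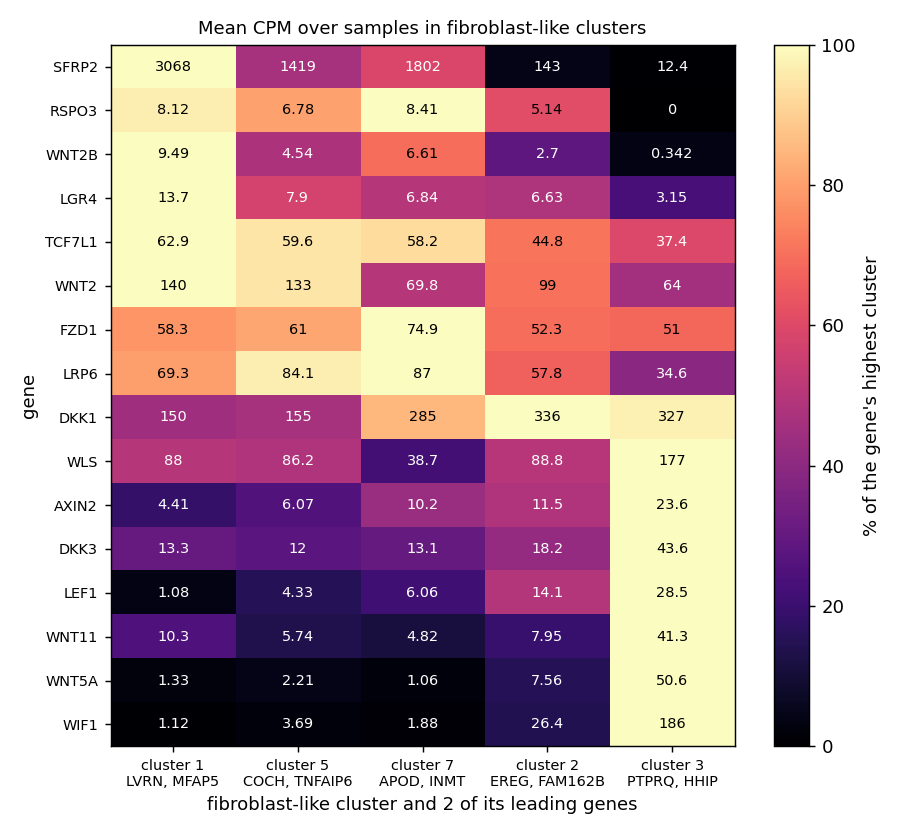
Mean CPM over the 4 samples (number in each cell) of 16 WNT genes in the 5 fibroblast-like clusters, coloured by the percentage of the gene's highest cluster. The lower 7 genes, from WLS to WIF1, peak in cluster 3, where SFRP2 (12.4 CPM), RSPO3 (0) and WNT2B (0.342 CPM) are darkest.

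Clusters were found from 2000 variable genes, 14 of them among the 43, so the contrast between clusters is a description and not a test. The principal components were also computed without the 43, although the integration of the samples still used the 14. A cluster of 1768 cells, 98.76% of them from cluster 3, then had mean levels of 186 CPM for WIF1 and 51.1 for WNT5A. It had 23.6 CPM for AXIN2, 12.7 for SFRP2 and 0 for RSPO3. Cluster 3 made up 21.1% and 30.95% of the fibroblast-like cells of the normal samples and 9.02% and 12.85% of those of the injured ones. Cluster 5 made up 12.16% and 7.33% of the normal and 26.29% and 20.47% of the injured. Levels summed over all fibroblast-like cells therefore move with these shares as well as within clusters, and both are given below.

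The comparison of injured with normal samples asks which of these genes differed after the wound had closed. The median mitochondrial share of UMIs per cell, a sign of RNA quality, was lower in both injured samples in each of the 6 classes, for example 12.01% and 12.28% against 8.80% and 9.57% in smooth muscle and pericyte-like cells, and its part in the differences below was not tested. With 2 samples a group, edgeR called no member in any class at an adjusted p under 0.05, and few other genes. In fibroblast-like cells 31 of the 43 could be tested and 0 of 8786 genes passed (0%), with 8 of the 31 and 956 of all genes at an unadjusted p under 0.05. DESeq2, run on the same sums, called 260 of 9496 genes (2.74%), among them 5 of 34 members, with SFRP2, WNT2, RSPO3 and LGR4 higher and WIF1 lower in the injured samples. The injured and normal samples did not overlap for 15 of the 31 members, close to the 43.7% of all genes, with 9 higher in both injured samples (15.8% of all genes) and 6 lower (27.9%). Without Injury_2 edgeR called 46 genes, 1 of them a member, SFRP2. The median log2 fold change of the 31 was 0.17, against 0.00 over all genes tested.

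SFRP2 was at 577.9, 562.5, 3349.6 and 2145.5 CPM in fibroblast-like cells, with both injured samples far above both normal ones. Its log2 fold change was 2.39 (SE 0.31, n = 2 and 2), with an adjusted p of 0.122 in edgeR and 1.08e-08 in DESeq2. Within clusters, both injured samples lay above both normal ones in all 5. With each cluster given the same weight the fold was 3.38, against 4.82 in the summed cells.

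WNT2 was at 67.9, 43.6, 152 and 187 CPM, again without overlap. It had a log2 fold change of 1.74 (SE 0.29), an adjusted p of 0.150 in edgeR and of 9.12e-05 in DESeq2, and did not overlap in any of the 5 clusters. RSPO3 had a log2 fold change of 2.05 (SE 0.30), with adjusted p-values of 0.128 in edgeR and 0.00234 in DESeq2, and was higher in both injured samples in each of the 4 clusters where it was found. LGR4, its receptor, was at 6.14, 3.13, 11.2 and 15.8 CPM in fibroblast-like cells, with a log2 fold change of 1.72 (SE 0.40) and adjusted p-values of 0.230 in edgeR and 0.0172 in DESeq2. With equal weights of the clusters the folds of WNT2, RSPO3 and LGR4 were 2.49, 3.23 and 2.20.

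**Figure D3:**
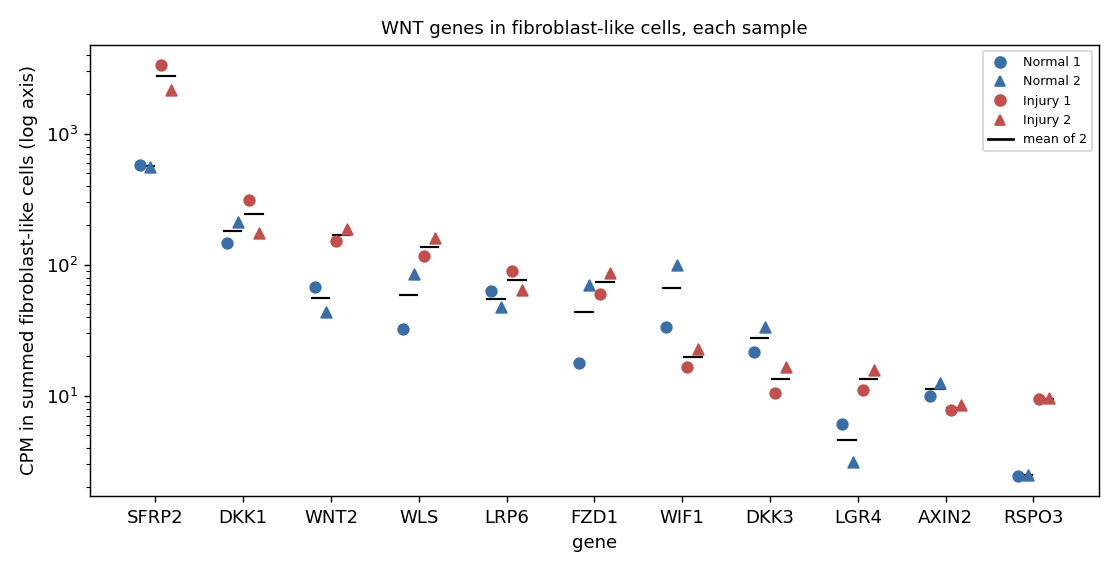
Level of 11 WNT genes in the summed fibroblast-like cells of each sample, in CPM on a log axis, with blue for normal, red for injured and a bar for the mean of 2. SFRP2, WNT2, WLS, LRP6, LGR4 and RSPO3 have both red points above both blue ones, and WIF1, DKK3 and AXIN2 have both below.

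WIF1 lay below both normal samples in each injured one and had a log2 fold change of -1.68 (SE 0.57) and adjusted p-values of 0.383 in edgeR and 0.0474 in DESeq2. Without Normal_2, which was the highest, the log2 fold change was -0.59. This difference was much reduced by equal weights of the clusters, from a fold of 0.294 to 0.759. Within cluster 3, where most WIF1 lay, the injured samples, at 187 and 169 CPM, fell between the normal ones, at 133 and 254. In cluster 2 WIF1 was at 17.5, 71.4, 4.48 and 12.1 CPM, without overlap. DKK3 was lower by 0.93 on the log2 scale (SE 0.38), with an adjusted p of 0.460 in edgeR, and its fold moved from 0.490 to 0.684 with equal weights.

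AXIN2 and LEF1 turned with the weights. In the summed cells AXIN2 was at 9.98, 12.6, 7.79 and 8.50 CPM, lower in both injured samples, with an adjusted p of 0.717 in edgeR. In cluster 3 alone it was at 17.6, 19.4, 28.2 and 29.4 CPM, higher in both, and LEF1 at 28.4, 14.5, 36.7 and 34.6 CPM was so too. Of the other 4 clusters, AXIN2 was lower in both injured samples in 1 and overlapped in 3, and LEF1 was lower in 2 and overlapped in 2. The folds went from 0.721 to 1.07 for AXIN2 and from 0.655 to 1.08 for LEF1 when clusters were weighted equally. WNT5A, with a fold of 0.907 in the summed cells and 1.95 with equal weights, overlapped between the groups in the summed cells.

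WLS was at 32.6, 84.6, 117 and 159 CPM in fibroblast-like cells, higher in both injured samples. Its log2 fold change was 1.32 (SE 0.51), with an adjusted p of 0.441 in edgeR and 0.146 in DESeq2, and was 0.77 without Normal_1 and 2.27 without Normal_2. The samples did not overlap in 3 of the 5 clusters, and the fold was 2.36 in the summed cells and 2.63 with equal weights. FZD1 was lowest in Normal_1, at 17.8 CPM against 69.9, 60.3 and 87.3 in the other samples, so its groups overlapped.

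In smooth muscle and pericyte-like cells 23 members could be tested, 0 of 6834 genes passed in edgeR (0%), and 6 of the 23 and 529 of all genes had an unadjusted p under 0.05. DESeq2 called 60 of 7261 genes (0.826%), with WNT2 and RSPO3 among the 22 members it tested. The samples did not overlap for 11 of the 23 (39.4% of all genes), with 10 higher in both injured samples (18.3%) and 1, FZD6, lower (21.1%). Without Normal_1 edgeR called 2 members, WNT2 and SFRP2, of 84 genes in all, and without Normal_2 it called 4, these and DKK1 and FZD1, of 333 genes. SFRP2 was at 0.582%, 7.16%, 3.26% and 5.21% of its fibroblast-like level in these cells, below the ratio of DCN in each sample. The median log2 fold change of the 23 was 0.44, against -0.01 over all genes.

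RSPO3 had no UMI in these cells in either normal sample and 32 and 18 UMIs in the injured ones, or 10.0 and 5.15 CPM. Against the limit that 3 UMIs over both normal samples would set, 0.627 CPM, this is at least 12.1-fold higher, with adjusted p-values of 0.283 in edgeR and 0.0295 in DESeq2. Of these UMIs 32 and 12 lay in cluster 6, led by the pericyte genes RGS5 and HIGD1B. Within cluster 6 the limit from 3 UMIs was 1.31 CPM, and RSPO3 was at least 8.2-fold higher. Both limits cover counting error only. Cluster 6 made up 49.01% and 51.64% of the class in the normal samples and 71.97% and 66.98% in the injured ones, and cluster 13, led by RERGL and MYH11, 46.81% and 30.95% against 20.49% and 22.59%. DKK1 lay above both normal samples in each injured one and had a log2 fold change of 1.44 (SE 0.26) and adjusted p-values of 0.283 in edgeR and 0.0657 in DESeq2. It was at 33.4, 19.9, 58.9 and 67.9 CPM in cluster 6 and 17.9, 8.81, 53.3 and 53.6 in cluster 13, higher in both injured samples in each.

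WNT2 was at 0.561, 7.65, 31.0 and 32.6 CPM in smooth muscle and pericyte-like cells, with a log2 fold change of 2.80 (SE 0.73) and adjusted p-values of 0.425 in edgeR and 0.0270 in DESeq2. It was at 0.826%, 17.6%, 20.4% and 17.4% of its fibroblast-like level, against 3.08%, 16.8%, 6.70% and 11.6% for DCN and 4.90%, 17.9%, 13.7% and 16.5% for COL1A1, a collagen gene of fibroblasts. WNT2 was thus below both in Normal_1, between them in Normal_2 and above both in the injured samples. Without Normal_2 the log2 fold change of WNT2 was 5.78. The part of fibroblast RNA in it was not tested. The class also holds a cluster of 101 proliferating cells, led by ANLN. In the other clusterings tried, the cluster led by the same genes was named fibroblast-like. Its part in the WNT2 and SFRP2 differences of this class was not tested. Over 15 other settings the log2 fold change ran from 2.05 to 5.78 for WNT2. For SFRP2, at 2.29 in the main fit, it ran from 1.18 to 5.085. FZD6 was at 3.93, 3.33, 0.313 and 0.572 CPM, with an adjusted p of 0.378 in edgeR.

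In endothelial-like cells 17 members could be tested, 0 of 7560 genes passed in edgeR (0%), and 2 of the 17 and 530 of all genes had an unadjusted p under 0.05. DESeq2 called 55 of 8800 genes (0.625%), none of the 22 members it tested. The samples did not overlap for 8 of the 17 (37% of all genes), with WLS, LRP6, SFRP2, TCF7L2 and DKK1 higher in both injured samples (24.3%) and WNT11, FZD3 and WIF1 lower (12.7%). SFRP2 was here at 0.0878%, 0.630%, 0.396% and 0.290% of its fibroblast-like level, against 0.128%, 0.663%, 0.354% and 0.462% for DCN. The part of fibroblast RNA in its difference was not tested. WLS was at 8.93, 9.07, 19.1 and 23.6 CPM, with a log2 fold change of 1.16 (SE 0.27) and an adjusted p of 0.477 in edgeR. Within the class, WLS was at 6.48, 6.27, 8.06 and 7.34 CPM in cluster 4, led by SELP and SELE, and at 9.28, 8.61, 18.2 and 23.9 CPM in cluster 0, led by ESM1 and KDR. Cluster 25, led by the lymphatic genes CCL21 and PROX1, had 168 and 103 CPM of WLS in the injured samples, where it made up 2.38% and 5.90% of endothelial-like cells, against 0% and 0.563% in the normal ones. FZD3, a Frizzled of planar polarity, was at 7.92, 9.23, 3.80 and 2.95 CPM, lower by 1.43 on the log2 scale (SE 0.35), with an adjusted p of 0.501 in edgeR. FZD6 and FZD4 overlapped between the groups. When the effect in fibroblast-like cells was compared with that in endothelial-like cells, edgeR called 2 of 8853 genes (0.0226%) and none of 29 members, LGR4 with an adjusted p of 0.146 being the nearest. FZD3, higher in both injured samples in fibroblast-like cells, at 0, 0.676, 0.945 and 3.05 CPM, had an adjusted p of 0.226 in this test.

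**Figure D4:**
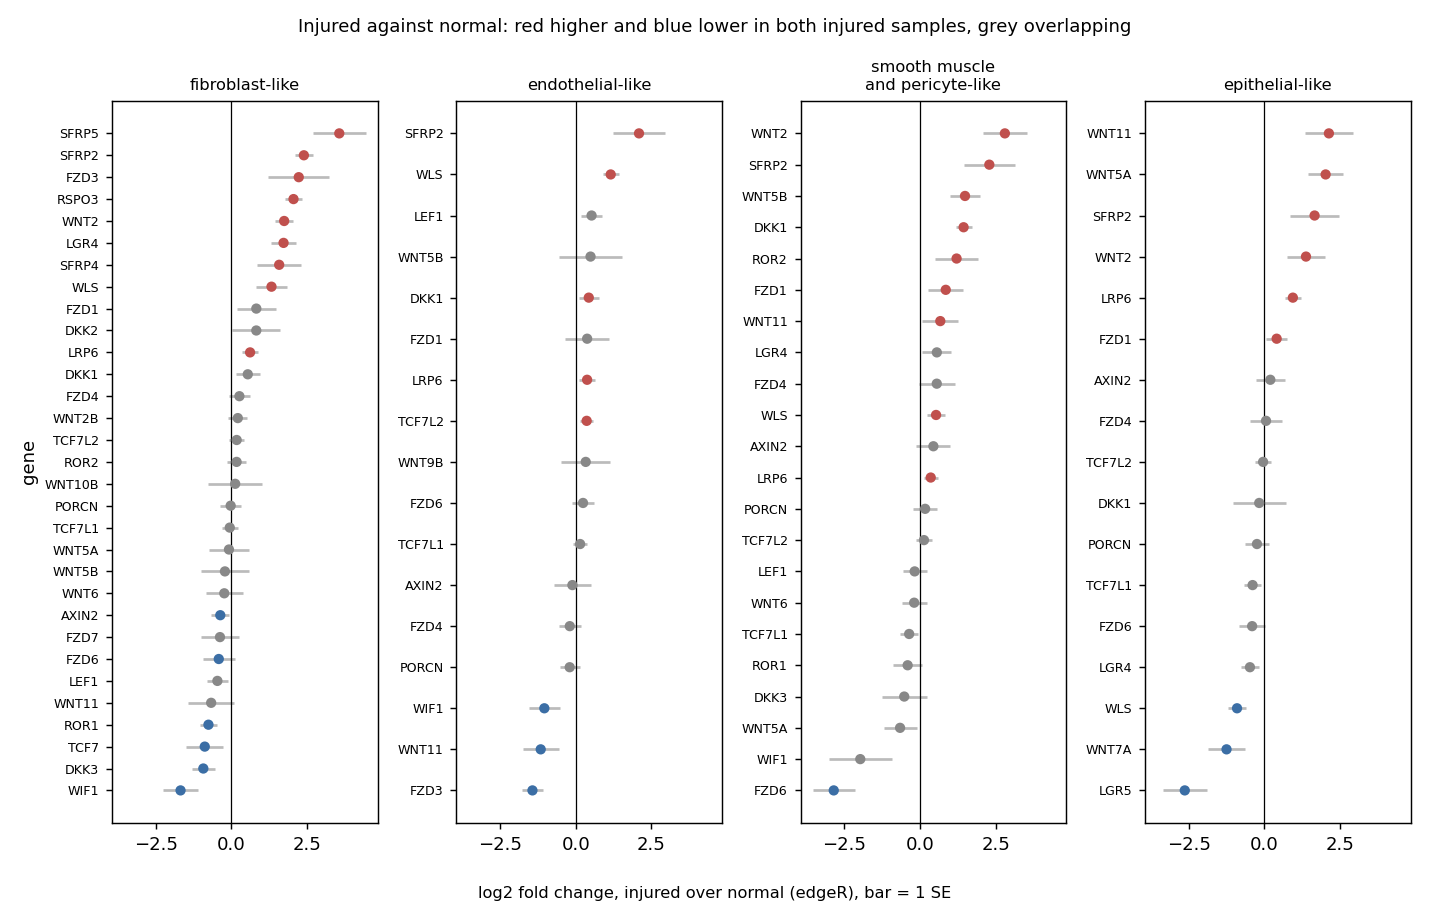
Log2 fold change, injured over normal, of each WNT gene that could be tested in 4 cell classes, with 1 SE from edgeR on either side. Red and blue points are higher or lower in both injured samples and grey points overlap; RSPO3 in smooth muscle and pericyte-like cells, listed at 0 in both normal samples, is left out.

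In epithelial-like cells 17 members could be tested. edgeR called 122 of 7041 genes (1.73%) but none of the 17, of which 5 had an unadjusted p under 0.05, as did 1446 of all genes. DESeq2 called 484 of 7511 genes (6.44%) and 1 of 22 members, WNT5B, which was at 23.2 CPM in Normal_2 but at 0.948 in Normal_1 and at 0.414 and 0.712 in the injured samples, so the call rests on Normal_2. The samples did not overlap for 9 of the 17 (55% of all genes), with 6 higher in both injured samples (39.4%) and 3 lower (15.6%). edgeR called 2 members, WLS and WNT5B, of 393 genes in all without Normal_1, 1, SFRP2, of 476 without Normal_2 and 1, WNT11, of 58 without Injury_1. SFRP2 and WNT2 are among the 6, and their ratios to the fibroblast-like level in this class are given above beside that of DCN. The median log2 fold change of the 17 was -0.04, against 0.00 over all genes.

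LRP6 was at 19.0, 17.6, 47.2 and 36.7 CPM in epithelial-like cells, with both injured samples above both normal ones. Its log2 fold change was 0.94 (SE 0.27), with an adjusted p of 0.133 in edgeR. WNT11 was at 3.60, 5.64, 8.83 and 37.9 CPM, with a log2 fold change of 2.13 (SE 0.79) and an adjusted p of 0.211 in edgeR, and without Injury_2 the log2 fold change was 0.63. WNT5A was at 0.759, 1.33, 5.93 and 3.74 CPM, higher in both injured samples, with an adjusted p of 0.137 in edgeR.

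WLS, LGR5 and WNT7A were lower in both injured samples of the epithelial-like class. WLS was at 60.5, 78.2, 45.7 and 44.0 CPM, with a log2 fold change of -0.90 (SE 0.28) and an adjusted p of 0.160 in edgeR. Cluster 12, led by SERPINB5, AQP3 and KRT5, made up 45.8% and 67.06% of the class in the normal samples and 34.63% and 39.27% in the injured ones, and its part in this difference was not tested. LGR5 was at 2.46, 3.31, 0.828 and 0.178 CPM, with a log2 fold change of -2.63 (SE 0.73) and an adjusted p of 0.127 in edgeR. WNT7A was at 2.28, 1.99, 1.52 and 0.534 CPM, with an adjusted p of 0.320 in edgeR. LGR4 and TCF7L2 overlapped between the groups.

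WLS was thus higher in both injured samples in fibroblast-like cells and lower in both in epithelial-like cells. The tests in this paragraph were run where such opposite directions had been seen in these same samples. Their adjusted p-values do not account for that choice or for the number of class pairs tested. The log2 fold change in fibroblast-like cells exceeded that in epithelial-like cells by 2.31 (SE 0.35), with an adjusted p of 0.0346 in the edgeR test of that difference, which called 113 of 8379 genes (1.35%) and WLS alone of 32 members. Against epithelial-like cells, the difference was 1.97 (SE 0.29) for endothelial-like cells, with an adjusted p of 0.0571 where edgeR called 0.33% of 8194 genes. It was 1.40 (SE 0.26) for smooth muscle and pericyte-like cells, with an adjusted p of 0.0509 where edgeR called 1.38% of 7685 genes and 1 of 23 members, WNT5B. WNT5B was at 2.24, 5.66, 12.8 and 10.3 CPM in smooth muscle and pericyte-like cells and, in epithelial-like cells, high in Normal_2 alone. Without Injury_1 or Injury_2 the adjusted p of the difference between fibroblast-like and epithelial-like cells was 0.216 or 0.255, and without integration of the samples 0.101. WNT11, lower in both injured samples in endothelial-like cells and higher in both in smooth muscle and pericyte-like and epithelial-like cells, gave adjusted p-values of 0.411 and 0.127 in the same edgeR test, where 0.493% of 7915 genes were called in the former.

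**Figure D5:**
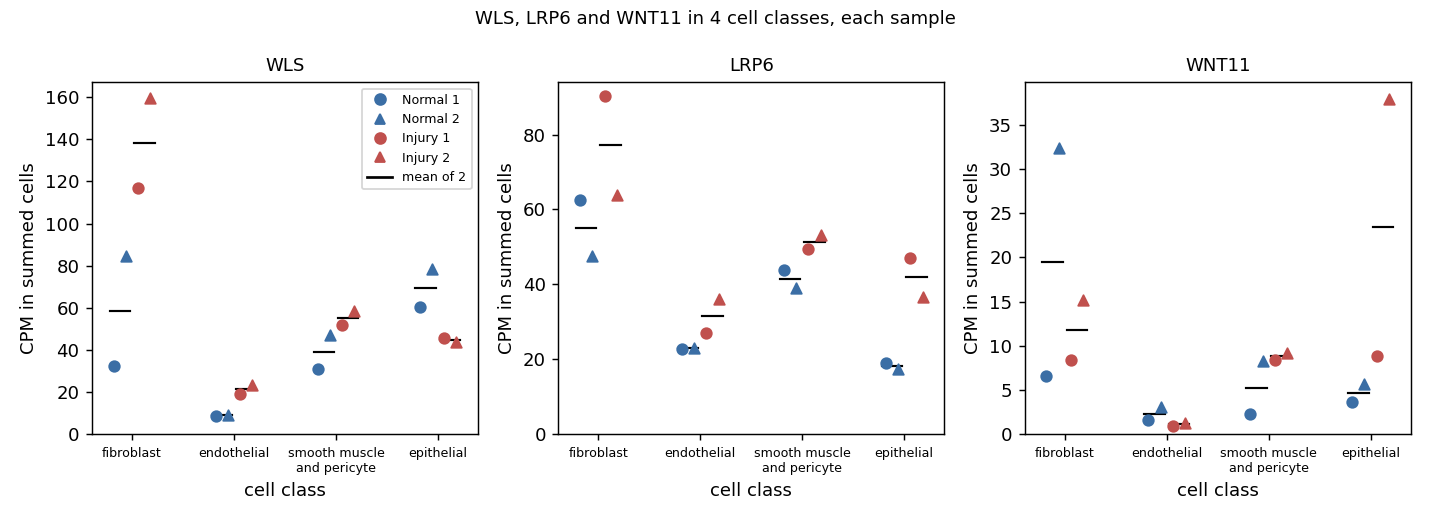
Level of WLS, LRP6 and WNT11 in CPM in each sample of 4 cell classes, with blue for normal, red for injured and a bar for the mean of 2. The red points of WLS lie above the blue ones in fibroblast-like, endothelial-like and smooth muscle and pericyte-like cells and below them in epithelial-like cells, while LRP6 is higher in red in each class.

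Within the epithelium, cells were separated by a UMI of KRT5, a keratin of basal cells, and of the uroplakins UPK1B and UPK3B, high in umbrella cells. The study found KRT5 and uroplakins in intermediate cells too, so the parts are not basal against umbrella cells. There were 313 cells with KRT5 alone, 679 with a uroplakin alone, 405 with neither and 134 with both. WNT7A had a mean of 3.54 ± 2.52 CPM in the KRT5 cells and 0.503 ± 0.656 in the uroplakin cells, and WNT1 3.72 ± 2.12 against 0.225 ± 0.261, on 17 and 5 UMIs and on 19 and 3 UMIs. WNT11 was at 5.57, 8.37, 14.9985 and 42.2 CPM in the KRT5 cells and at 0.689, 0, 7.39 and 33.5 in the uroplakin cells, higher in the former in each sample. LRP6 went the other way, at 13.7, 17.6, 26.5 and 27.8 CPM in the KRT5 cells and 26.9, 24.1, 54.2 and 43.6 in the uroplakin cells. LGR4 was higher in the uroplakin cells in each sample, at 32.4, 21.7, 18.6 and 22.5 CPM against 26.3, 15.1, 13.8 and 13.5, and TCF7L2 higher in the KRT5 cells in each, at 79.9, 47.7, 77.3 and 65.8 CPM against 46.9, 36.2, 67.7 and 56.02. The ranges of all 4 genes over the samples overlapped between both kinds of cell. In the uroplakin cells of Normal_2, 1 UMI was 2.41 CPM, so the values of that sample there rest on few UMIs. The 0.689 CPM of WNT11 in the uroplakin cells of Normal_1 was 1 UMI. WLS was at 70.3, 97.9, 48.5 and 38.0 CPM in the KRT5 cells, lower in both injured samples, and at 48.3, 65.1, 46.2 and 50.8 in the uroplakin cells, where the groups overlapped. The median UMI count was 16399 in KRT5 cells and 12439 in uroplakin cells.

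In T cell-like cells 4 members could be tested. edgeR called 1 of 4536 genes (0.022%) and none of the 4, and DESeq2 74 of 3552 (2.08%) and none. In edgeR 2 of the 4 and 653 of all genes had an unadjusted p under 0.05. DKK1, lower in both injured samples, had a log2 fold change of -2.99 (SE 0.80) and adjusted p-values of 0.184 in edgeR and 0.0702 in DESeq2. It was at 40.3%, 4.61%, 1.64% and 2.03% of its fibroblast-like level, and so was high in Normal_1 above all. The same ratios for DCN were 0.181%, 3.92%, 0.870% and 0.627%, and the part of fibroblast RNA in DKK1 here was not tested. TCF7, high in Normal_1 with 82.0 CPM, had a log2 fold change of -1.95 (SE 0.60) and an adjusted p of 0.237 in edgeR, and without Normal_1 the log2 fold change was -0.88. In macrophage-like cells 9 members could be tested, edgeR called 0 of 5658 genes (0%), with 716 genes and none of the 9 at an unadjusted p under 0.05, and DESeq2 54 of 5708 (0.946%) and none of 8. WNT5B was at 2.65, 28.4, 26.2 and 21.8 CPM in macrophage-like cells, low in Normal_1 alone.

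Of 51 other genes of the pathway, among them CTNNB1, GSK3B, the TLE co-repressors and RYK, 29 are in the matrices. Between 8 and 23 of them could be tested in a class. edgeR called none in any of the 6 classes, where it called between 0% and 1.73% of all genes. DESeq2 called 1, CTNNBIP1, in epithelial-like cells, where it called 6.44% of all genes. CTNNBIP1, which keeps beta-catenin from TCF proteins, was at 253, 164, 100 and 96.3 CPM there, with a log2 fold change of -1.32 (SE 0.24) and adjusted p-values of 0.0588 in edgeR and 0.000907 in DESeq2. Of 13 feedback and target genes of beta-catenin 7 are in the matrices, and neither tool called any of them in any class. Only 1 to 6 of them could be tested in a class. Of all genes DESeq2 called between 0.625% and 6.44% over the classes, so no call among so few genes says little. MYC, a target gene, was at 33.7, 31.3, 62.0 and 60.4 CPM in smooth muscle and pericyte-like cells, higher in both injured samples. It was lower in both in epithelial-like cells, at 17.1, 14.9, 8.97 and 8.55 CPM, and in T cell-like cells, at 56.5, 27.5, 9.48 and 14.8 CPM. Its adjusted p in edgeR was 0.378, 0.124 and 0.176, and elsewhere its groups overlapped. TNFRSF19, another target gene, was higher in both injured samples of smooth muscle and pericyte-like cells, at 5.05, 3.33, 11.6 and 14.3 CPM. The same held in fibroblast-like cells, at 3.38, 1.06, 3.66 and 5.69 CPM, with adjusted p-values of 0.378 and 0.499 in edgeR.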

How the data were processed

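UMI counts per gene and barcode were measured in 4 samples, 2 a group. The authors made these counts with Cell Ranger (6.0.1 in the matrix headers), with no normalization; the submitters' notes also name Seurat, and the genome release is not given in the sources used here. The genes and lists described here were chosen with earlier results of these data known.

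Cells with at least 500 UMIs, 200 genes and at most 15% of UMIs from 13 mitochondrial protein genes were kept. Seurat 5.3.0 (R 4.3.3) was used to normalize, integrate (CCA) and cluster them (2000 variable genes, 30 components, resolution 0.8), which gave 27 clusters, named from marker genes. Of these, 2 clusters of 490 cells stayed unnamed, and a cluster of 101 proliferating cells lay in the smooth muscle and pericyte-like class on 7 raised markers, with none of them among its leading genes. It held SFRP2 at 44.5, 598 and 314 CPM and WNT2 at 24.7, 137 and 101 CPM in Normal_2 and the injured samples, and the cluster led by the same genes was named fibroblast-like in each of the 4 other clusterings tried. Doublets were scored with Scrublet in scanpy 1.11.5, which called between 0.255% and 2.6% of the cells of a sample, and were removed only in an alternative.

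UMI counts were summed per class and sample, with at least 20 cells in each, and tested across all genes with edgeR 4.0.16, quasi-likelihood (filterByExpr, TMM, Benjamini-Hochberg adjustment, threshold 0.05), with DESeq2 1.42.0 beside it. The difference between classes was the interaction of class and condition with the sample as a block. The steps were tested on simulated data. Values are given for the 3 genes with the highest level in each role. They are also given for up to 5 per class with the largest difference without overlap and at least 20 CPM. Others, whose values were seen first, are RSPO3, LGR5, WNT5A, WNT7A, FZD3, AXIN2, LEF1, WNT2B, MYC, TNFRSF19 and CTNNBIP1. Some values, such as those of FZD4, ROR1, ROR2, PORCN, TCF7L1 and WNT2B, are a mean with SD and not every sample. Sequences and coordinates were not used here.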

Additional observations from a re-analysis of the deposited data

Results flagged for a closer look

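For WLS, WNT11 and FZD3 the injured samples lay on opposite sides of the normal ones in 2 cell classes. The interaction tests of WLS and WNT11 were run because of this, and their adjusted p-values do not account for that choice. WLS, which carries WNT ligands to the cell surface, had a log2 fold change of 1.32 in fibroblast-like and of -0.90 in epithelial-like cells, a difference of 2.31 (adjusted p of 0.0346 in the edgeR interaction test). The difference of WLS from epithelial-like cells was 1.97 for endothelial-like cells, with an adjusted p of 0.0571 in edgeR, and 1.40 for smooth muscle and pericyte-like cells, with 0.0509. Over 13 other settings of the test between fibroblast-like and epithelial-like cells, added after the data had been seen, the difference ran from 1.87 to 2.77 and its adjusted p in edgeR from 4.39e-08 to 0.255. It missed the threshold in 3 of them, without Injury_1 (0.216), without Injury_2 (0.255) and without integration of the samples (0.101).

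WNT11 had a log2 fold change of -1.16 in endothelial-like, 0.67 in smooth muscle and pericyte-like and 2.13 in epithelial-like cells. The difference was -1.90 between endothelial-like and smooth muscle and pericyte-like cells (adjusted p of 0.411 in edgeR) and -2.98 between endothelial-like and epithelial-like cells (0.127). Its level in endothelial-like cells was between 0.981 and 3.05 CPM, or 8.61% to 24.6% of that in fibroblast-like cells of the same sample.

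FZD3 had a log2 fold change of 2.22 (SE 1.01) in fibroblast-like and of -1.43 (SE 0.35) in endothelial-like cells, a difference of 3.57 (SE 0.887, adjusted p of 0.226 in the edgeR interaction test). Its level in fibroblast-like cells was at most 3.05 CPM, and 0 in Normal_1.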

How the results depend on the processing

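The levels of the 21 named genes in their highest class were recomputed with other cell limits, clusterings or samples left out. All 231 stayed within 1 SD, taken over the samples, of the value given. Leaving out 1 of 4 samples cannot move a mean further than that, so those recomputations could not fail. The SD was also wide for some genes, such as SFRP2 with 1350 CPM on a mean of 1659. The 27 log2 fold changes kept their direction in all 393 recomputations with other tests, filters, cell limits or samples left out, of which 36 passed the threshold. Each of the 27 was from a gene and class whose injured and normal samples did not overlap. Leaving out a sample could therefore hardly turn the direction, so those recomputations say little about it. Counts of calls did not hold. DESeq2 called 5 of the WNT genes and 260 genes in all in fibroblast-like, 0 and 55 in endothelial-like, 2 and 60 in smooth muscle and pericyte-like, 1 and 484 in epithelial-like, 0 and 74 in T cell-like and 0 and 54 in macrophage-like cells. edgeR without its filter on low counts called 9 of the WNT genes and 569 genes in fibroblast-like, 5 and 289 in smooth muscle and pericyte-like, 7 and 960 in epithelial-like, 2 and 355 in T cell-like and 4 and 358 in macrophage-like cells; the cause was not tested. With a sample left out, edgeR called 0 to 1 of the WNT genes and 13 to 46 genes in fibroblast-like cells (SFRP2, without Injury_2), 0 to 16 genes in endothelial-like, 0 to 4 and 0 to 333 in smooth muscle and pericyte-like, 0 to 2 and 58 to 476 in epithelial-like, 0 to 1 and 38 to 100 in T cell-like (DKK1, without Normal_2) and 0 to 2 and 72 to 476 in macrophage-like cells (without Normal_1, Normal_2 or Injury_2). The mitochondrial limit of 10% gave 2 genes in endothelial-like, 50 in epithelial-like, 3 in T cell-like and 4 in macrophage-like cells. In T cell-like cells total UMI scaling and 20 components gave 4 genes, no integration 10 and removal of high doublet scores 0, and in macrophage-like cells total UMI scaling gave 4.

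The samples share the numbers 1 and 2 across groups with no label that ties samples of one number to an animal, litter or day, and their deviations correlated between -0.02 and 0.19 over classes, and the numbers were not taken as pairs. With the replicate number as a block, edgeR called 3 of the WNT genes (SFRP2, WNT2 and RSPO3) and 180 genes in fibroblast-like cells, and 25, 15, 25, 41 and 61 genes, none of them of the WNT group, in endothelial-like, smooth muscle and pericyte-like, epithelial-like, T cell-like and macrophage-like cells. With the numbers crossed between the groups, it called 3, 0, 0, 275, 170 and 29 genes in these classes, in the same order. Of the WNT genes this block gave 2, both in T cell-like cells. The fibroblast-like clusters were also weighted equally, a setting chosen after the data had been seen. Folds then crossed 1 for AXIN2 (1.07), LEF1 (1.08), WNT5A (1.95), WNT5B (1.01), FZD4 (0.876) and WNT2B (0.784). With 2 samples a group a gene that was not called may still differ.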

Other observations

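The smooth muscle and pericyte-like class was uneven in its ligands too. WNT6 was at 22.6, 8.81, 20.7 and 17.1 CPM in cluster 13, led by RERGL, SNCG and the smooth muscle gene MYH11, and at 2.38, 7.56, 4.83 and 4.50 CPM in cluster 6, led by IBSP, RGS5 and RGS4. WNT5A was found in cluster 6, at 10.7, 21.3, 8.21 and 9.49 CPM. The receptor ROR1 followed WNT6 in this, with a mean of 11.9 ± 3.10 CPM in cluster 13 and 2.40 ± 0.896 in cluster 6. MYH11, DES and other genes of muscle were among those the clusters were named from, and the WNT genes were not.

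Among the endothelial-like clusters, FZD6 had means of 35.8 ± 10.4 CPM in cluster 0, 61.6 ± 22.1 in cluster 4 and 72.8 ± 16.8 in cluster 11, led by ATP2A3, BMX and TM4SF1. FZD3 was highest in cluster 11, at 23.5, 13.5, 14.5 and 10.8 CPM, and at no more than 4.29 CPM in cluster 4. LEF1 was higher in cluster 4, at 20.6 ± 6.71 CPM, than in cluster 11, at 10.4 ± 4.02.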
